A study of Mus musculus with 8 samples.

Results

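The genes *Ss18*, *Psip1* and *Smc3* each encode a protein that works on chromatin, and each had a PRDM10 peak at its promoter in mouse embryonic stem cells (mESCs). They are 3 of the 55450 genes annotated in GENCODE vM21, 21951 of which are protein-coding. The 3 genes were chosen by their measured PRDM10 peaks, so the strength, rank and position of those peaks are given as a description and no test was run on them. For each gene, every listed peak was taken that overlapped the gene body, the 5 kb upstream of it or the 1 kb downstream of it. This gave 3 of the 528 peaks in vehicle-treated cells and 3 of the 176 peaks in 4-hydroxytamoxifen (4-OHT)-treated cells, that is 1 peak per gene and treatment. The 528 listed peaks have 520 distinct intervals, so some intervals are listed more than once, and shares are taken over listed peaks.

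PRDM10 ChIP-seq, which recovers the DNA fragments that an antibody against PRDM10 pulls down, was carried out in ES cell lines carrying *Prdm10*F/F; Rosa26-CreERT2, where 4-OHT activates the CreERT2 recombinase and a floxed exon of *Prdm10* is then removed. The control cells received ethanol (EtOH) for 24 h and stayed *Prdm10*F/F, and the other cells received 50 nM 4-OHT for 24 h and are labelled *Prdm10*del/del. Each treatment had 3 ChIP samples and 1 input sample, and each ChIP sample was made with a different polyclonal antibody, 2 made in-house and 1 from Bethyl Laboratories, so antibody and replicate cannot be told apart. The authors pooled the samples of a treatment into 1 peak list, so no value has a replicate error. The lists carry no read counts, so the depth behind each peak could not be computed, and the methods state sequencing depth only roughly. In these cells the CreERT2 transgene is carried in both treatments, but exposure to 4-OHT and the deletion come together and cannot be told apart. The lists hold peaks and no expression, so neither the cell type nor the deletion could be checked from them.

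PRDM10 is a PR domain protein with a run of C2H2 zinc fingers, the class of domain with which many transcription factors read DNA sequence. SS18 is a subunit of the BAF (SWI/SNF) complexes, which use ATP to move or evict nucleosomes, and it is known from the fusion with SSX that marks synovial sarcoma. PSIP1, also called LEDGF, binds nucleosomes methylated on lysine 36 of histone H3 through its PWWP domain, and its integrase-binding domain holds partners such as the menin and MLL1 complex and, in infected cells, HIV integrase. SMC3 pairs with SMC1A in cohesin, the ring that holds sister chromatids together and extrudes chromatin loops.

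The sequences under the peaks are given first because *Psip1* and *Smc3* share a stretch of the DNA probe that was used in the study's gel shift assay. The probe is 28 bases long, and its mutant form differs from it at 8 bases. Both are printed 5′ to 3′, with the bases that differ in capitals.
WT probe: ctggcacagTGGTcgcGCCCggcccgcc
MUT probe: ctggcacagCAACcgcATTTggcccgcc
With position 1 as the first base of the WT probe, the changes are T10C, G11A, G12A, T13C, G17A, C18T, C19T and C20T. The motif core searched for here was TGGTNNNNNCC, which fills positions 10 to 20 of the WT probe, and 6 of the 8 changes fall on its fixed bases. The mutant probe held 0 matches of the core.

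The WT probe matched the GRCm38.p6 genome within the *Psip1* peak at all 28 bases, on the plus strand at chr4:83486672-83486699. *Psip1* itself lies on the minus strand. The stretch of the EtOH peak that holds every core match is printed on the plus strand, with the core matches in capitals, read on either strand.
Psip1 chr4:83486447-83486711: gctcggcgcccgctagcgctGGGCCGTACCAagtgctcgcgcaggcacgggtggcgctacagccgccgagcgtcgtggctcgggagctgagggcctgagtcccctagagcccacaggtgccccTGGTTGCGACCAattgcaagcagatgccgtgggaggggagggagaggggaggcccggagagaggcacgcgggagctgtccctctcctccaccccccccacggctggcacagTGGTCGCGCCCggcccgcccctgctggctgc
There were 4 exact core matches at 3 separate places. The middle place was matched on both strands, at chr4:83486570-83486580 on the plus strand and 1 base further on the minus strand, so that the 12 bases TGGTTGCGACCA carried a core in each direction. The place nearest the gene, chr4:83486467-83486477, was on the minus strand, and the place farthest upstream, chr4:83486681-83486691, was the probe's own core.

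In the EtOH peak at *Smc3* the core was found at 2 places, shown in capitals in the plus strand of the genome, which is also the strand of the gene.
Smc3 chr19:53600115-53600386: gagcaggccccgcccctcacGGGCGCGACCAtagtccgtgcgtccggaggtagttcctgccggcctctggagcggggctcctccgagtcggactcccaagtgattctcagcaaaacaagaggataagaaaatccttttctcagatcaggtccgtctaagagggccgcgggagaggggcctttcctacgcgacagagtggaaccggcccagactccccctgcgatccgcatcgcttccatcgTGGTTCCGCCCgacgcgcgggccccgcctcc
The place farther from the gene, chr19:53600135-53600145, was on the minus strand, and the nearer one, chr19:53600356-53600366, was on the plus strand. To compare them with the probe, the 28 bases around each core match were laid on the frame of the probe, with the 6 fixed core bases in capitals and minus-strand sites read in their own direction.
Psip1 chr4:83486672-83486699, plus: ctggcacagTGGTcgcgcCCggcccgcc
Psip1 chr4:83486561-83486588, plus: aggtgccccTGGTtgcgaCCaattgcaa
Psip1 chr4:83486563-83486590, minus: gcttgcaatTGGTcgcaaCCaggggcac
Psip1 chr4:83486459-83486486, minus: gcgagcactTGGTacggcCCagcgctag
Smc3 chr19:53600127-53600154, minus: cacggactaTGGTcgcgcCCgtgagggg
Smc3 chr19:53600347-53600374, plus: cttccatcgTGGTtccgcCCgacgcgcg
The minus-strand site of *Smc3* was identical to the probe at all 11 core positions, TGGTCGCGCCC, and at 17 of 28 bases in all. The plus-strand site of *Smc3* was identical at 19 of 28 bases and at 9 of the 11 core positions, with the changes C14T and G15C inside the core, counted as in the probe. The 3 other *Psip1* frames were identical to the probe at 11 or 12 of 28 bases. Thus the 2 *Smc3* sites were closer to the probe over their full length than the other sites of *Psip1*, the gene at which the probe matched.

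An exact core match was found at 2 of the 3 genes, beside 64.2% of all EtOH peaks (339 of 528, Wilson 95% interval 60.0% to 68.2%) and 13.8% of 32851 RefSeq promoters of 300 bases (GRCm38.p6, from 250 before to 50 after the start of a gene). Of these genes, 1 has an entry in that promoter table, *Smc3*. A share of 2 of 3 is near that of all EtOH peaks. The core was read from the gel shift probes and the published motif, which the paper discovered in these same peaks. The probe also matches the *Psip1* peak in full, so a core at *Psip1* was fixed in advance. These shares are therefore a description, and nothing is read from the difference between peaks and promoters. Over windows of 300 bases centred on the EtOH summits, which match the promoters in length, 59.7% of peaks held a core, and the windows of *Psip1*, *Smc3* and *Ss18* held 4, 1 and 0 matches.

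The number of places differed among the genes. Over whole peaks, at least 2 separate places were found at 2 of the 3 genes and in 21.8% of all EtOH peaks, 115 of 528. At the equal length of 300 bases this left 1 of the 3 genes, *Psip1* with 3 places, while the window of *Smc3* held 1. The other core of *Smc3*, centred 146 bp from the summit, was cut by the edge of the window and so was not counted. At that length, 18.4% of EtOH windows and 0.995% of the RefSeq promoters held at least 2. The 3 places of *Psip1* were reached or passed by 27 EtOH peaks, and the most in any peak was 6. A core on both strands of the same place was found in 9 EtOH peaks, 1.70%, that of *Psip1* among them. The count was the same in the windows of 300 bases, and 0.350% of the promoters held one. The exact core of the probe was found in 6 EtOH peaks, including those of *Psip1* and *Smc3*. In windows of 300 bases it was again found in 6, 1.14%, with both genes among them, and it was in 4 of the promoters, 0.0122%. *Psip1* has no promoter entry, and its core was fixed in advance by the probe. At *Smc3* the probe's core was centred at -258 bp from the TSS, beyond the 250 bases before the start that a promoter covers. The windows were centred on summits and the promoters placed by gene starts, so nothing is read from differences between their shares.

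**Figure D1:**
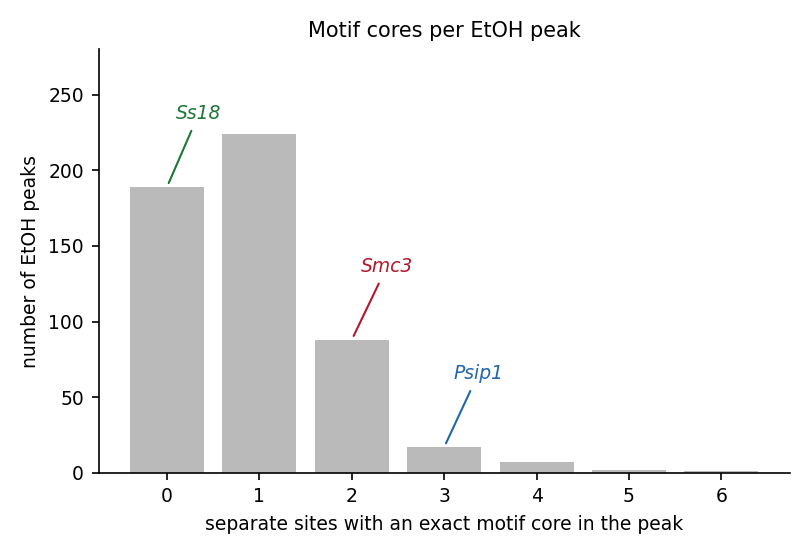
Number of EtOH peaks (y axis) by the number of separate places with an exact motif core in the peak (x axis), over all 528 peaks. The marks show the bar to which each gene belongs, 0 places for *Ss18* (a bar of 189 peaks), 2 for *Smc3* and 3 for *Psip1*.

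In the peak of *Psip1*, the place matched on both strands lay 26 bp from the EtOH summit and 2 bp from the 4-OHT summit, measured from the centre of the plus-strand match. The probe's core was farther out, 137 bp from the EtOH summit and 113 bp from the 4-OHT summit. The remaining place lay 77 bp from the EtOH summit. In the peak of *Smc3*, the probe's core lay 75 bp from the EtOH summit and 95 bp from the 4-OHT summit, and the other core 146 and 126 bp. Over all EtOH peaks with a core, the closest one was at a median of 57 bp from the summit, so the closest core of *Psip1* was nearer than the median and that of *Smc3* farther.

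*Psip1* (ENSMUSG00000028484) is on the minus strand at chr4:83455680-83486459 (mm10) and spans 30780 bp. Its EtOH peak, at chr4:83486357-83486809, was 453 bp wide and had a signal value of 626, in the units of the peak caller. This was rank 20 of 528, with rank 1 the strongest, and 4.76 times the list's median of 131. The 4-OHT peak, at chr4:83486252-83486909, was 658 bp wide and had a signal value of 217, rank 13 of 176 and 3.89 times that list's median of 55.7. *Psip1* was thus near the top of each list. The signal values of the lists come from separate peak calls and share no scale, so ranks and multiples of the median are compared, and the loss of signal at a gene was not measured.

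The EtOH summit of *Psip1* lay 90 bp upstream of the transcription start site (TSS) of transcript Psip1-201, and the 4-OHT summit 114 bp upstream. The EtOH peak held 3 annotated TSSs of the gene, at 83486453, 83486458 and 83486459. Of its bases, 350 were upstream of the TSS and 103 were 5′ UTR in exon 1 of 16. The start codon is in exon 2, outside the peak. No other protein-coding TSS was close, the nearest being that of *Snapc3*, 22573 bp from the summit.

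*Smc3* (ENSMUSG00000024974) is on the plus strand at chr19:53600398-53645833 and spans 45436 bp. Its EtOH peak, at chr19:53599997-53600463, was 467 bp wide with a signal value of 609, rank 21 and 4.63 times the median. It stood directly below *Psip1* in the list. The 4-OHT peak, at chr19:53599927-53600560, was 634 bp wide with a signal value of 271, rank 8 and 4.87 times the median. In the 4-OHT list *Smc3* therefore stood above *Psip1*, the reverse of their order in the EtOH list. Without a replicate error, neither order can be set against a spread.

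The EtOH summit of *Smc3* lay 183 bp upstream of its TSS at 53600398 and the 4-OHT summit 163 bp upstream. The EtOH peak held 401 bp upstream of the TSS and 66 bp of 5′ UTR in exon 1 of 29. It ended before the start codon, at 53600540 to 53600542, which the wider 4-OHT peak included. The window of AC137853.1, a minus-strand locus of the TEC class, which awaits experimental evidence, also held the peak, with its TSS 804 bp from the summit. The nearest other protein-coding TSS was that of *Nutf2-ps1*, 11147 bp away.

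*Ss18* (ENSMUSG00000037013) is on the minus strand at chr18:14624198-14682914 and spans 58717 bp. Its EtOH peak, at chr18:14682699-14683118, was 420 bp wide with a signal value of 551, rank 35 and 4.19 times the median. It ranked below *Psip1* and *Smc3*. The 4-OHT peak, at chr18:14682302-14683441, was 1140 bp wide with a signal value of 93.9, rank 62 and 1.69 times the median. Among the 3 genes, *Ss18* had the lowest signal value in each list.

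Measured from the nearest annotated TSS of each gene, the peak of *Ss18* lay closer to the gene's start than the others. Its EtOH summit was 15 bp downstream of the TSS of transcript Ss18-201, at 14682914, and its 4-OHT summit 42 bp downstream. From the TSSs of Ss18-203, Ss18-202 and Ss18-206, also protein-coding, the EtOH summit lay 71, 133 and 133 bp upstream. The order of the genes by this distance thus depends on the transcript taken. The peak held 9 of the TSSs of its 11 annotated transcripts, at 7 distinct positions from 14682756 to 14682914. Its bases were 204 upstream of the TSS, 179 of 5′ UTR and 37 of coding sequence in exon 1 of 11, and it held the start codon at 14682733 to 14682735. Over all EtOH peaks the summit lay at a median of 148.5 bp from the nearest TSS, and 27 peaks were closer than that of *Ss18*. The nearest other protein-coding TSS was that of *Psma8*, 23252 bp away.

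**Figure D2:**
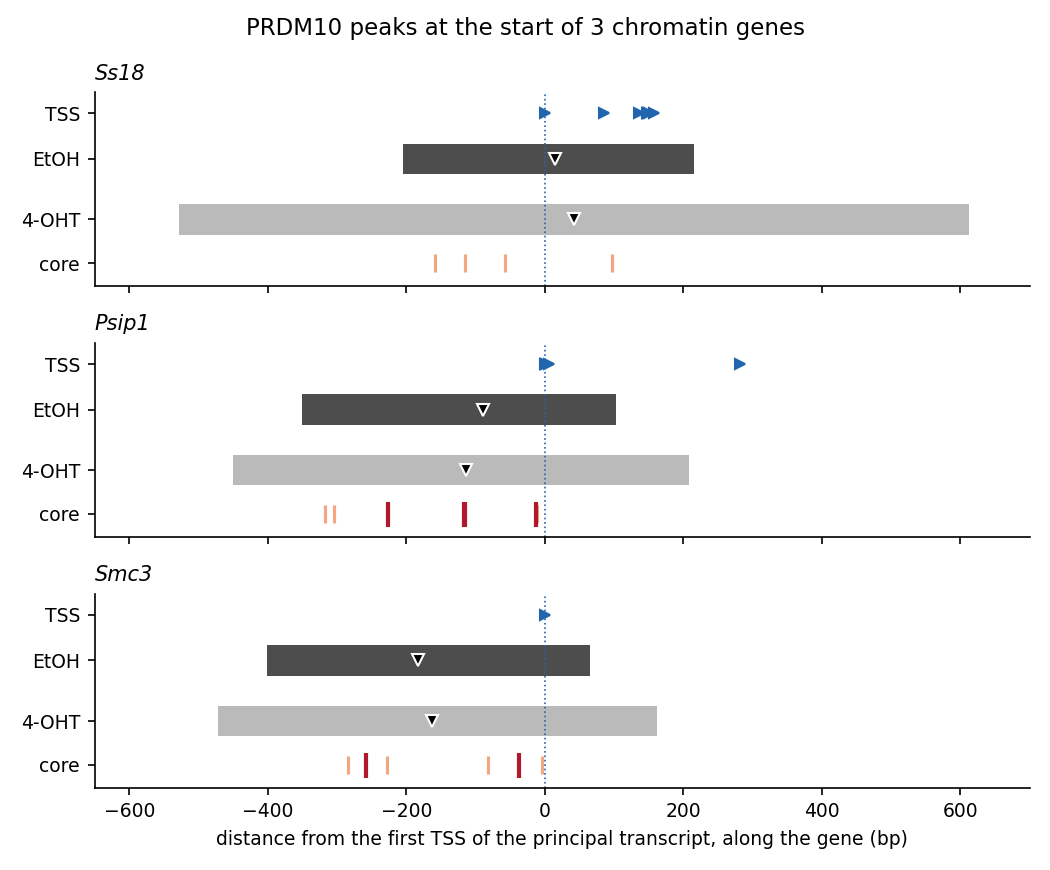
Position of the EtOH and 4-OHT peaks at each gene, in bp from the TSS along the direction of the gene (x axis), with bars for the peaks, black triangles for summits, blue triangles for annotated TSSs, red lines for exact motif cores and pale lines for matches with 1 mismatch in the EtOH peak. The EtOH peak lies inside the 4-OHT peak at each gene, and the summits lie within 183 bp of the TSS.

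Base composition also differed among the peaks. The EtOH peak of *Ss18* was 75.5% G and C, that of *Psip1* 69.5% and that of *Smc3* 66.2%. The median over all EtOH peaks was 58.9% (quartiles 52.3% and 66.5%), and 25 peaks were higher than that of *Ss18*. The observed over expected number of CpG dinucleotides, which is high in CpG islands, was 0.973 at *Ss18*, 0.859 at *Psip1* and 1.02 at *Smc3*, with a median of 0.695 (quartiles 0.348 and 0.863). The ratios of *Ss18* and *Smc3* were thus above the upper quartile of all EtOH peaks and that of *Psip1* just under it.

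The core was not found in the peak of *Ss18*, which says only that these letters are not in this stretch. There were 4 places that differed from the core by 1 base, the nearest with its centre 72 bp from the summit. With 1 mismatch allowed, however, 525 of the 528 EtOH peaks held a match. In all, 189 EtOH peaks were without an exact core, and among the 50 peaks with the highest signal values 8 were, *Ss18* among them.

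All 6 peaks at the 3 genes had the highest IDR score of 1000, a measure of how reproducible a peak was between parts of the data, as did 504 EtOH peaks and 98 4-OHT peaks. At 3 of the 3 genes the EtOH peak overlapped the 4-OHT peak by at least 1 bp. Over the list 20.3% did, 107 of 528 (Wilson 95% interval 17.1% to 23.9%, covering the counting of peaks only), and 39 of the 50 strongest did. The genes were chosen by their peaks, so nothing is read from this count. Each EtOH peak lay wholly inside its 4-OHT peak, and covered 68.8% of it at *Psip1*, 73.7% at *Smc3* and 36.8% at *Ss18*.

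The summits of each pair lay close together, 24 bp apart at *Psip1*, 20 bp at *Smc3* and 27 bp at *Ss18*. Over the 121 overlapping pairs of peaks the median was 30 bp (quartiles 9 and 80). The 4-OHT peak of *Ss18* had the commonest width in that list, which was 1140 bp for 125 of the 176 peaks and for 58 of the 109 that overlapped an EtOH peak. The 4-OHT peaks of *Psip1* and *Smc3* were narrower than that.

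**Figure D3:**
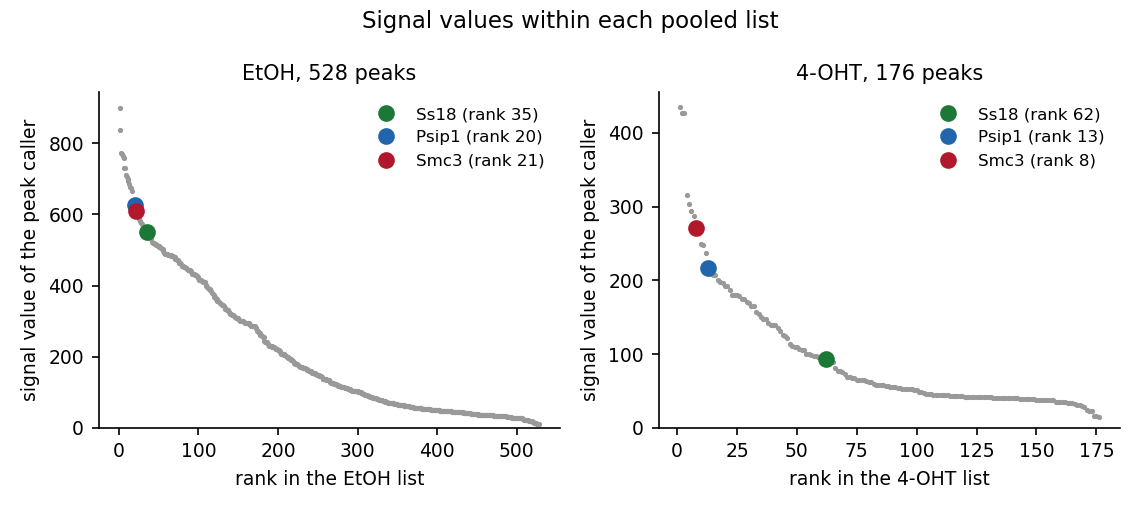
Signal value of each peak (y axis, linear scale, in the units of the peak caller) by rank in its list (x axis), with one panel for EtOH and one for 4-OHT and coloured points for the 3 genes. The genes lie at ranks 20, 21 and 35 of 528 in EtOH and at 13, 8 and 62 of 176 in 4-OHT.

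To compare places in lists of unequal length, ranks were put as a percentage of the list, so that a low value is a strong peak. *Smc3* stood at 3.98% of the EtOH list and 4.55% of the 4-OHT list, and *Psip1* at 3.79% and 7.39%. *Ss18* stood at 6.63% and 35.2%, a difference of 28.6 percentage points, against 3.60 for *Psip1* and 0.568 for *Smc3*. The lists differ in length and in the peaks they hold, so these differences do not measure a change at a gene. Among only the peaks that overlapped one of the other list, *Psip1* stood at 17 of 107 in EtOH and 13 of 109 in 4-OHT, *Smc3* at 18 and 8, and *Ss18* at 30 and 62. On that count *Psip1* and *Smc3* stood higher in 4-OHT than in EtOH, the opposite of their percent ranks, whereas *Ss18* stood lower on either count. These ranks are a description of peaks by which the genes were chosen. As a share of the highest signal value in the list, *Psip1* had 69.6% in EtOH and 49.9% in 4-OHT. *Smc3* had 67.7% and 62.5%, and *Ss18* 61.2% and 21.6%.

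Other strong EtOH peaks also ranked low in the 4-OHT list. Among EtOH peaks with a 4-OHT peak, 29 ranked above *Ss18*, and 6 of them had a 4-OHT peak ranked lower than that of *Ss18*. For *Psip1*, 16 such peaks ranked above it and 10 of them were lower in the 4-OHT list. For *Smc3* these numbers were 17 and 13.

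**Figure D4:**
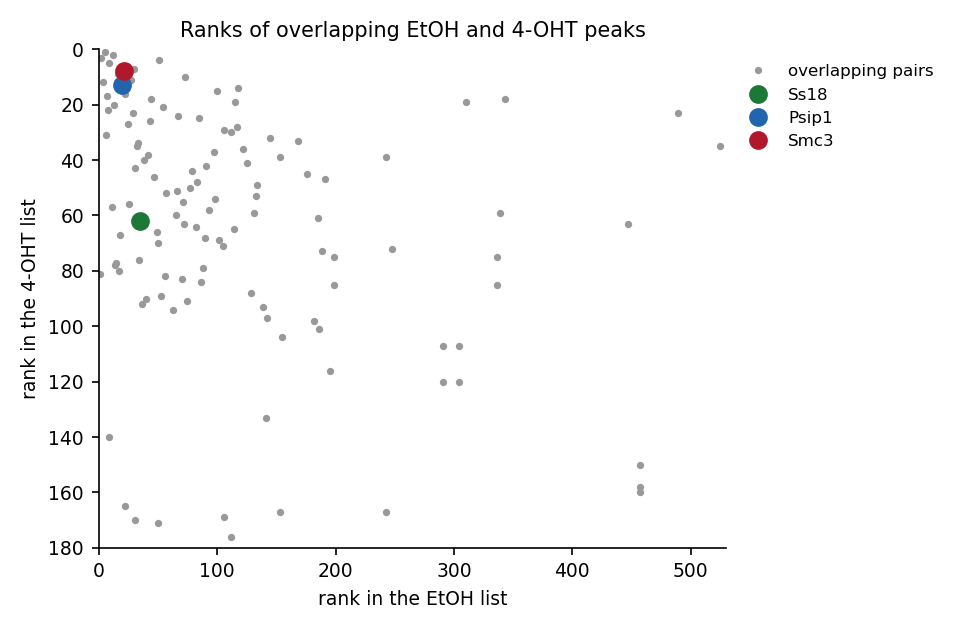
Rank in the 4-OHT list (y axis) against rank in the EtOH list (x axis) for the 121 overlapping pairs of peaks, with rank 1 at the top left and the 3 genes in colour. *Psip1* and *Smc3* lie at the top left, and *Ss18* lies lower, at 4-OHT rank 62, with other pairs of similar EtOH rank above and below it.

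The peaks most like each gene were found from the summed difference in percent rank over the EtOH and 4-OHT lists, and are named by the nearest TSS. For *Smc3* these were *Ccdc85c* (EtOH rank 16, 4-OHT rank 9) and *Prkci* (24 and 6), with summed differences of 1.52 and 1.70 percentage points. For *Psip1* they were *Ewsr1* (22 and 16), which encodes an RNA-binding protein of the FET family, and *Arpc4* (27 and 11), a subunit of the actin-nucleating ARP2/3 complex, at 2.08 and 2.46 points. For *Ss18* they were *Mlst8* (49 and 66), a subunit of the mTOR complexes, and *Dot1l* (26 and 56), the methyltransferase of lysine 79 of histone H3, at 4.92 and 5.11 points. The nearest peaks to *Ss18* were thus less like it than those to the other genes.

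The peaks directly around the genes differed little in signal value. In the EtOH list *Psip1* (626) followed *Fbxl14* (633), and *Smc3* (609) was followed by *Ewsr1* (603). *Ss18* (551) stood between *Sash1* (553) and *Gipc1* (544). In the 4-OHT list *Smc3* (271) stood between *Uchl3* (288) and *Ccdc85c* (264), *Psip1* (217) between *Tardbp* (238) and *Nr6a1* (209), and *Ss18* (93.9) between AC151294.1 (94.9) and *Cd3eap* (93.2).

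Other genes of the same complexes were looked up in the lists. All 3 genes had a peak in their window in each treatment, where 2.48% of protein-coding genes had one in EtOH (544 of 21951) and 0.733% in 4-OHT (161 of 21951), and nothing is read from the count of these genes since it chose them. Of 70 other genes of BAF, cohesin, condensin and other SMC complexes, and of the relatives and partners of PSIP1, 4 had an EtOH peak (5.71%) and 1 had a 4-OHT peak (1.43%). Each share was above that of all protein-coding genes, but it rests on 4 genes and 1 gene and was not tested. Of the 4 genes with an EtOH peak, 0 also had a 4-OHT peak, beside 20.3% of all EtOH peaks that overlapped one, and nothing is read from so small a count.

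Among 28 other BAF genes, 2 had an EtOH peak. *Ss18l1*, the paralogue of *Ss18* found in the neuronal form of the complex, had a signal value of 357 (rank 124) at chr2:180042453-180042801, with its summit 129 bp downstream of the TSS and 1 core match. This was a weaker peak than that of *Ss18*, but unlike it held the core. *Bcl7c*, another subunit of the complex, had a signal value of 55.4 (rank 376) at chr7:127666579-127667008, 40510 bp into the gene, so this peak was not at its promoter. It held 2 core matches. *Smarce1*, which encodes the BAF57 subunit, had no EtOH peak but had a pair of overlapping 4-OHT peaks (ranks 146 and 147), 2664 and 2962 bp downstream of its TSS, with no core.

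Among 21 other genes of cohesin and its regulators, 1 had an EtOH peak, *Smc1a*, which encodes the partner of SMC3 in the ring. Its signal value was 85.2 (rank 319) at chrX:152016643-152017072, with the summit 430 bp downstream of the TSS and 1 core match. The partner's peak was thus far below that of *Smc3* in the list. None of the 10 genes of condensin and other SMC complexes had a peak in either list. Among 11 other genes around PSIP1, 1 had an EtOH peak, *Cdca7l*, which encodes a protein that binds the integrase-binding domain of PSIP1. Its signal value was 213 (rank 203) at chr12:117843602-117843778, with the summit 174 bp upstream of the TSS and no core.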

How the data were processed

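PRDM10 ChIP-seq was carried out on 3 ChIP samples and 1 input sample per treatment. Per the submitters' processing notes, reads were aligned to mm10 with BWA 0.7.13 and handled with Picard 2.10.6 and SAMtools 1.2. The authors called peaks with SPP on pooled samples and selected them by IDR. The deposited signal value is in the units of the peak caller, the deposited score is the IDR score, and the summit is an offset from the peak start. Lists were used as deposited, with 0 columns left out as belonging to other samples. The lists hold no read counts, so depth per sample could not be computed from them (the methods state it only roughly), and no replicate error exists.

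The build was checked as GRCm38.p6, with gene models of GENCODE vM21. Gel shift probe sequences were read from the study's supplementary sheet. A peak was joined to a gene where it touched the gene body, extended by 5 kb on the upstream side and by 1 kb on the other. Peaks were ranked by signal value within a list, overlaps needed 1 bp, and the core was matched exactly on both strands. Matching and overlap were tested on simulated data, where 200 of 200 planted cores and 120 of 120 planted overlaps were found. No test between groups was run, as each treatment had 1 pooled list. The genes and gene lists were chosen with earlier results of these data known. Named genes were the 3 genes, other genes whose window held their peaks, listed genes with a peak, and the 2 EtOH peaks most like each gene in percent rank. Neighbours in rank, the nearest other protein-coding genes and the peaks with the probe's core were named after their values were seen. The alternatives were a stricter IDR score, other overlap rules, merged peaks, promoter windows, other transcripts, other readings of the core and, added later, windows of 300 bases. The tools were samtools 1.23.1 and Python 3.11.15 with matplotlib 3.10.9, pysam 0.24.0, scipy 1.17.1 and numpy 2.4.6.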

Additional observations from a re-analysis of the deposited data

How the results depend on the processing

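Over 22 of 23 alternatives, values kept within 1.5 times of those first found. These were counts, ranks and distances for *Ss18*, *Psip1* and *Smc3*, and counts of the listed chromatin genes with a peak. The exception, chosen after seeing the data, was the search of 300 bases at the summit, which left 1 in place of 2 genes with at least 2 core places. An overlap of 50% of both peaks left 2 of the 3 pairs, without *Ss18*, whose EtOH peak covers 36.8% of its wide 4-OHT peak. Allowing 1 mismatch gave 3 of 3 genes with a core, but also 99.4% of all EtOH peaks. Looking at the TSS and the 1 kb upstream only, listed genes with an EtOH peak went from 7 to 5, without *Bcl7c* and *Smc1a*, and with a 4-OHT peak from 4 to 3, without *Smarce1*. No paired analysis was possible because each list is pooled over its samples, and for the same reason leaving out 1 replicate could not be run.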

Other observations

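The exact core of the probe was in 4 EtOH peaks besides those of *Psip1* and *Smc3*, which were looked up after the values had been seen. They lay nearest to the TSSs of *Tacc1* (signal value 636, rank 17), *Tcp11l2* (471, rank 73), *Syn1* (297, rank 157) and *Pip4k2b* (221, rank 199). Of the 6 peaks with this core, 5 overlapped a 4-OHT peak, and the peak at *Syn1* did not, beside 20.3% of all EtOH peaks and 39 of the 50 strongest. Of these 5, 2 are *Psip1* and *Smc3*, which were chosen by their peaks, so nothing is read from this count.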
